A study of Mus musculus and Homo sapiens with 22 samples.

Results

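The genes described here are 32 mouse genes of the synaptic vesicle and its release machinery. They come from a list of symbols out of 22667 genes measured in N2A cells, a mouse neuroblastoma line. The list was chosen with earlier results of these data known, so its shares beside those of all genes are descriptions. The 32 genes fall into 4 roles, namely 7 SNARE and fusion genes, 13 vesicle protein genes, 8 active zone and adhesion genes and 4 endocytosis genes. All 32 were found in the files, and 26 of them (81.25%) reached 1 RPKM in at least 1 file, against 56.51% of all genes with an RPKM value. RPKM is a read count scaled by gene length and by the reads of the file.

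Neurotransmitter release rests on SNARE proteins of the vesicle and of the plasma membrane that pair and draw both membranes together. Synaptotagmins sense calcium at this step, complexins hold the paired SNAREs ready, and the SNAP proteins with the ATPase NSF take spent SNARE complexes apart. Active zone scaffolds place vesicles at the release site, and dynamin, synaptojanin and clathrin adaptors take the membrane back up.

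The RNA-seq part of the study asked how 3 splicing regulators act in these cells. The siU2af65 library (letter a) came from cells given an siRNA pool against U2af65, the 3′ splice site factor encoded by U2af2, and the siPtbp1 library (letter b) from cells given a pool against Ptbp1, a repressor of neuronal exons. Controls a and b received a control siRNA pool, and all siRNA cells were harvested at 48 hours. The shnSR100 file came from stable cells with a lentiviral hairpin against the 3′ UTR of nSR100, a neuronal splicing factor encoded by Srrm4, and the shGFP file from stable cells with a hairpin against GFP, both kept in 2 ug/mL puromycin. Each hairpin group is 1 hairpin and 1 file that pools 2 sequencing runs of different read length, so it has no replicate. The labels do not say whether controls a and b were separate cultures. The p-values therefore measure the spread between libraries that may differ in technical ways alone. All cells are of one tumour line, and the values are reads per gene, not exon inclusion.

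Reads in genes numbered 60220620 to 77138004 per file. Ptbp1 fell by 4.18 on the log2 scale in siPtbp1 (SE 0.32, adjusted p = 0.00242 in edgeR) and U2af2 by 2.67 in siU2af65 (SE 0.26, adjusted p = 0.00468 in edgeR). Srrm4 was 2.50 RPKM in shnSR100 and 11.6 RPKM in shGFP. Of 14 neuron and neuroblastoma markers, 11 reached 1 RPKM, and the summed level of the list was 1240 RPKM in siU2af65, 1102 in siPtbp1, 1257 and 1163 in controls a and b, 686 in shnSR100 and 1126 in shGFP. The neuronal markers Dcx, Nefl and Nefm stayed under 1 RPKM in every file. The 8 glial markers summed to 2.51 to 5.19 RPKM, the 5 immune markers to 0.34 to 1.03 RPKM, and the 6 fibroblast markers to 0.42 to 0.84 RPKM in siRNA libraries, 12.4 RPKM in shnSR100 and 7.41 RPKM in shGFP.

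Every SNARE and fusion member was expressed in N2A cells, and the members under 1 RPKM in every file came from the other 3 roles. The t-SNARE gene Snap25 had the highest mean of the 32, with 58.8 RPKM in siU2af65, 99.3 in siPtbp1, 96.1 and 107 in controls a and b, 44.5 in shnSR100 and 102 in shGFP. These levels were low in siU2af65 and shnSR100 and close to each other in the remaining 4 files. Its vesicle partner Vamp2, the main brain synaptobrevin, had 35.4 RPKM in siU2af65, 66.0 in siPtbp1, 59.1 and 34.6 in controls a and b, 41.9 in shnSR100 and 47.4 in shGFP. Control b was the lowest of the 6 files and control a the second highest. Cplx1, a complexin gene, ranged from 31.96 to 53.3 RPKM, Napb, the brain form of the SNAP adaptor for NSF, from 6.99 to 39.0, and Stx1a, the plasma membrane syntaxin, from 11.2 to 25.1. Cplx2, from 4.16 to 15.8 RPKM, and Vamp1, from 2.59 to 9.37, were the lowest of the SNARE and fusion members.

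Of the vesicle proteins 11 of 13 were expressed, and their means ran from 10.2 to 60.3 RPKM. Syn2, a synapsin that tethers vesicles to one another, had 50.4 RPKM in siU2af65, 46.6 in siPtbp1, 86.4 and 50.7 in controls a and b, 61.4 in shnSR100 and 66.5 in shGFP. Control a stood above the other files. Syt1, the calcium sensor of fast release, had 29.8 RPKM in siU2af65, 39.4 in siPtbp1, 55.7 and 47.9 in controls a and b, 50.4 in shnSR100 and 58.9 in shGFP. It was lowest in siU2af65. The synaptotagmin genes Syt4 and Syt11, which carry a substitution in a calcium-binding domain, ranged from 30.01 to 53.4 and from 26.6 to 66.7 RPKM. The vesicle GTPase genes Rab3a and Rab3c ranged from 22.3 to 33.1 and from 15.8 to 33.8 RPKM, synaptophysin (Syp) from 11.6 to 30.9 and synapsin 1 (Syn1) from 8.83 to 25.2. Sv2a, a vesicle glycoprotein gene, ranged from 8.06 to 13.1 RPKM. The synuclein genes Sncb and Sncg varied most between files in this role, from 10.9 to 52.1 and from 8.66 to 55.3 RPKM.

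Active zone members split into expressed genes and genes under 1 RPKM in every file. Unc13a, which encodes the vesicle priming factor Munc13-1, had 59.7 RPKM in siU2af65, 41.1 in siPtbp1, 66.4 and 51.7 in controls a and b, 24.0 in shnSR100 and 51.8 in shGFP. It was lowest in shnSR100. Rims2, a scaffold that links Rab3 to Munc13, had 17.4 RPKM in siU2af65, 16.5 in siPtbp1, 17.3 and 20.7 in controls a and b, 10.1 in shnSR100 and 15.2 in shGFP. The siRNA libraries lay close together for this gene. Nrxn2, a presynaptic adhesion receptor gene, ranged from 8.71 to 19.96 RPKM. Nlgn2, whose product is a neurexin ligand on the postsynaptic side of inhibitory synapses, ranged from 5.77 to 20.9, and Bsn, the large scaffold bassoon, from 2.22 to 4.96. Among endocytosis genes Dnm1, the neuronal dynamin that cuts vesicles from the membrane, had 26.4 RPKM in siU2af65, 35.5 in siPtbp1, 35.9 and 36.3 in controls a and b, 33.7 in shnSR100 and 44.6 in shGFP. Snap91, the clathrin adaptor AP180, had 30.1 RPKM in siU2af65, 24.8 in siPtbp1, 20.2 and 26.6 in controls a and b, 21.8 in shnSR100 and 29.0 in shGFP. Both genes varied by less than 2-fold between files, and Synj1, the phosphatase synaptojanin, ranged from 10.0 to 18.6 RPKM. In all, 17 members were at 10 RPKM or more in every file.

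**Figure D1:**
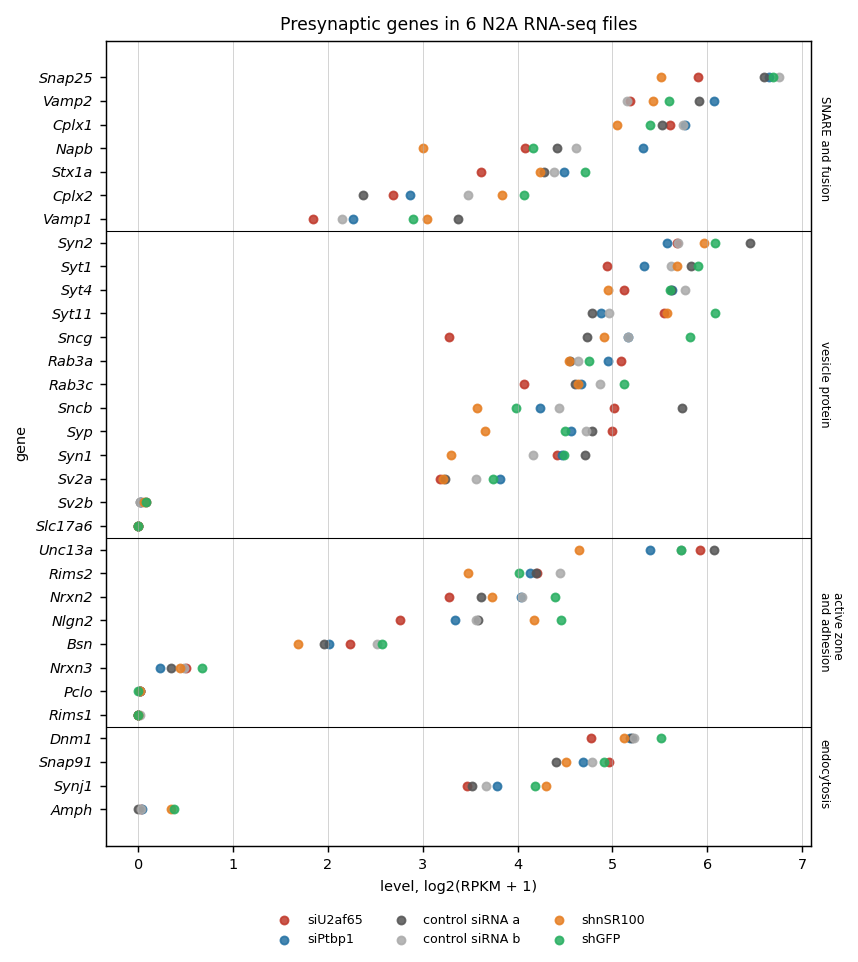
Level of each of the 32 genes as log2(RPKM + 1) on the horizontal axis, 1 point per file, with genes grouped by role and ordered by mean level. The 26 expressed genes lie at 2.22 RPKM or more in every file, and 6 genes stay at 0.60 RPKM or less in every file.

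The 6 members under 1 RPKM in every file were Slc17a6, Rims1, Sv2b, Pclo, Nrxn3 and Amph. Slc17a6, which encodes the vesicular glutamate transporter VGLUT2, had 0 reads in all 6 files, and a count of 0 allows up to 3 reads, or 0.00726 CPM (counts scaled by library size) over all files. Rims1 had 5 reads in all 6 files together and never more than 3 in one. Pclo, which encodes the active zone scaffold piccolo, had 62 reads in all and at most 16 in a file. Sv2b had 76 reads in all, and its highest level was 0.06 RPKM. Amph, which encodes the endocytic adaptor amphiphysin, had 0, 5, 6 or 7 reads in the siRNA libraries, against 62 in shnSR100 and 56 in shGFP, at most 0.30 RPKM. Nrxn3 was the highest of the 6, at 0.17 to 0.60 RPKM. The limit for a count of 0 covers counting error only. These 6 genes were left out of the main test, which needed a mean of 1 RPKM. Their counts are given as they stand, and differences between groups at this level were not judged.

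Most of the members under 1 RPKM had a relative that was expressed. The relatives come from a second list of 103 presynaptic genes, of which 101 were found. In the SV2 family Sv2c was at 28.2 to 62.2 RPKM beside Sv2a, while Sv2b was near 0. Rims3 ranged from 17.3 to 35.7 RPKM and Rims4 from 3.65 to 7.92, beside the expressed Rims2 and the near absent Rims1. Bin1, a relative of Amph, ranged from 48.0 to 78.3 RPKM. Among vesicular transmitter transporters the monoamine carrier Slc18a2 (VMAT2) was at 44.6 to 112 RPKM, while the glutamate carriers Slc17a7 and Slc17a8 and the GABA carrier Slc32a1 stayed under 1 RPKM. Unc13b and Unc13c stayed at 0.12 RPKM or less beside Unc13a, and Dnm2, the dynamin of most cell types, was at 21.8 to 30.4 RPKM beside Dnm1. With the vesicular transporters taken as 1 group, 1 to 3 genes reached 1 RPKM in each of these families.

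**Figure D2:**
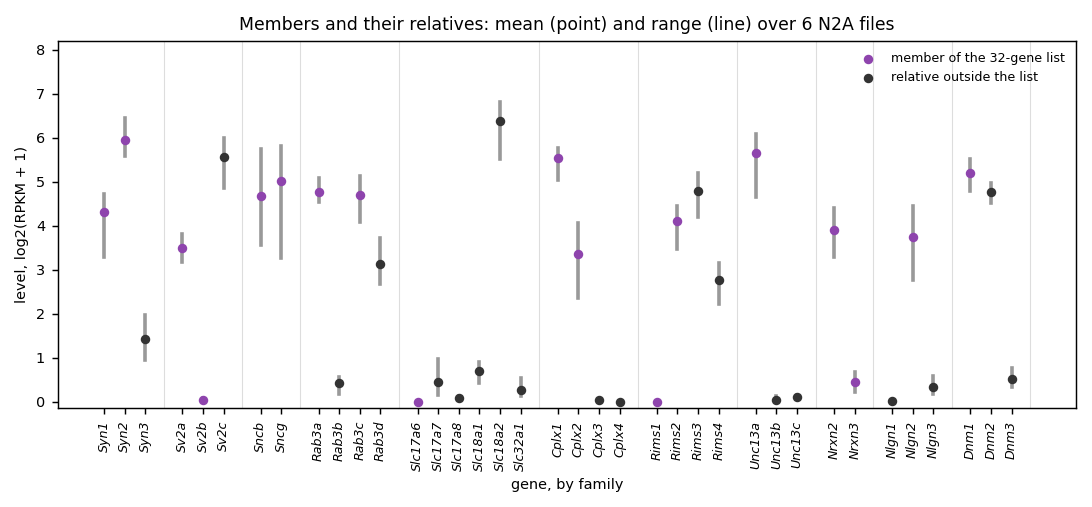
Mean level over the 6 files (points) and lowest to highest file (lines) as log2(RPKM + 1), for members and their relatives by family. With the vesicular transporters taken as 1 group, each family has 1 to 3 genes that reach 1 RPKM, and the others lie below it. Slc18a2 is the one high gene among the vesicular transporters.

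In 4 of the 26 expressed members (15.4%) both hairpin files, from stable cells, lay above all 4 libraries of transiently transfected siRNA cells, a smaller share than the 30.3% of all genes at 1 RPKM or more. The groups differ in the agent and in puromycin selection, so the values are given with no test and say nothing particular to release genes. Cplx2, a complexin gene, had 13.2 RPKM in shnSR100 and 15.8 in shGFP, against 4.16 to 10.2 RPKM in the siRNA libraries. Nlgn2 had 17.0 RPKM in shnSR100 and 20.9 in shGFP, against 5.77 to 10.95 RPKM in the siRNA libraries. Synj1 had 18.6 RPKM in shnSR100 and 17.2 in shGFP, against 10.0 to 12.7 RPKM, and Syt11 had 46.6 and 66.7 RPKM in the same files, against 26.6 to 45.6 RPKM. In Syt11 the shnSR100 and siU2af65 values were close to each other.

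In 4 other members (Cplx1, Syp, Sncb and Rims2) both hairpin files lay below all 4 siRNA libraries, the same 15.4% of members beside 14.3% of all genes. Sncb had 10.9 RPKM in shnSR100 and 14.8 in shGFP, against 17.9 to 52.1 RPKM in the siRNA libraries. Rims2 had 10.1 RPKM in shnSR100 and 15.2 in shGFP, against 16.5 to 20.7 RPKM in the siRNA libraries. The remaining 18 members overlapped between the hairpin and siRNA files.

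After U2af65 knockdown 2 of the 26 tested members fell and 0 rose in edgeR, against 3.42% of all 11237 tested genes that fell and 1.82% that rose, 5.24% in either direction. At an unadjusted p under 0.05, edgeR had 11 members lower and 1 higher, beside 13% and 10.5% of all genes, and DESeq2 had the same numbers of members, beside 12.7% and 8.39% of all genes. Sncg, which encodes gamma-synuclein, had 8.66 RPKM in siU2af65, against 25.6 and 34.7 RPKM in controls a and b. The siU2af65 library lay far below both controls, and siPtbp1, at 34.9 RPKM, lay close to control b. Sncg fell by 1.89 on the log2 scale (SE 0.34, adjusted p = 0.0187 in edgeR), or 6.68 CPM in siU2af65 and 24.8 ± 3.83 CPM in the controls (SD, n = 2). Nlgn2 had 5.77 RPKM in siU2af65, against 10.95 and 10.8 RPKM in controls a and b. The controls were close together and siU2af65 stood below them. Nlgn2 fell by 1.02 on the log2 scale (SE 0.24, adjusted p = 0.0422 in edgeR), or 27.4 CPM in siU2af65 and 55.6 ± 3.77 CPM in the controls (SD, n = 2). In bulk RNA, fewer cells that express a gene and less of its RNA per cell cannot be told apart.

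**Figure D3:**
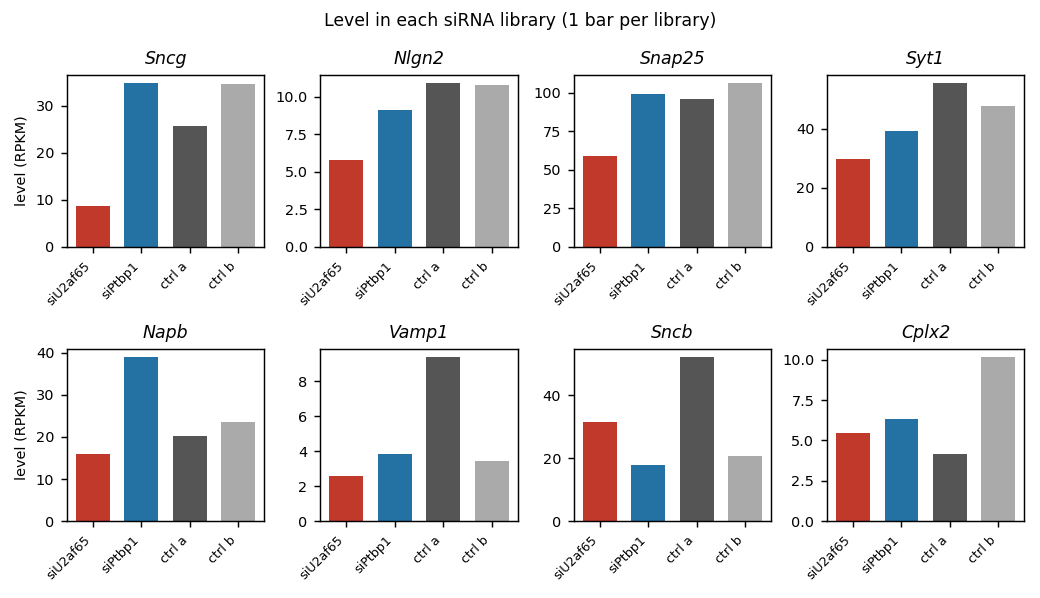
Level in RPKM of 8 genes in the siU2af65 and siPtbp1 libraries and control siRNA libraries a and b, 1 bar per library, each panel from 0. Sncg and Nlgn2 are lowest in siU2af65, Napb is highest in siPtbp1, and for Vamp1, Sncb and Cplx2 the 2 controls differ by more than 2-fold.

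The other members mostly had negative differences that did not pass the test. The log2 difference was below 0 in all 7 SNARE and fusion members (median -0.56) and in all 5 active zone and adhesion members (median -0.22), of which Unc13a turned positive with library totals and with limma, and Bsn with limma on log2(RPKM + 0.1). Against control a alone Cplx2 was at 0.22 and Bsn at 0.20, and against control b alone Unc13a was at 0.17. Of the 11 vesicle proteins 8 were negative (median -0.35), and of the 3 endocytosis genes 2 were (median -0.25). Over the 26 members 22 were negative with a median of -0.50, beside 50.39% negative and a median of -0.00 over all genes tested. Against control a alone 20 were negative, and against control b alone 19. In 17 of the 26 the siU2af65 library lay below both controls, as it did for 39.5% of all genes, and in 4 (Syp, Syt11, Rab3a and Snap91) it lay above both, as for 40.6% of all genes.

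Several members of the release machinery were just short of the threshold. Snap25 had 58.8 RPKM in siU2af65, against 96.1 and 107 RPKM in controls a and b, a log2 difference of -0.88 (SE 0.22, adjusted p = 0.0521 in edgeR). Syt1 had 29.8 RPKM in siU2af65, against 55.7 and 47.9 RPKM in controls a and b, a difference of -0.90 (SE 0.25, adjusted p = 0.0650 in edgeR). In both genes siU2af65 was below both controls. For Stx1a the difference was -0.87 (SE 0.25, adjusted p = 0.0689 in edgeR) and for Rab3c it was -0.80 (SE 0.23, adjusted p = 0.0720 in edgeR). Vamp1 had the second widest difference, -1.43 (SE 0.59, adjusted p = 0.179 in edgeR), with 2.59 RPKM in siU2af65, against 9.37 and 3.44 RPKM in controls a and b. Its controls were further apart than siU2af65 and control b, and the difference was -2.02 against control a and -0.45 against control b. The highest positive difference was that of Syt11, 0.59 (SE 0.21, adjusted p = 0.128 in edgeR), with 45.6 RPKM in siU2af65, against 26.6 and 30.1 RPKM in controls a and b.

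The spread in these fits rests on controls a and b, which leave 1 residual degree of freedom, and each single knockdown library is taken to vary as they do. Against control a alone, which shares its letter with siU2af65, 4 members were 2-fold lower (Sncg, Nlgn2, Vamp1 and Syt1) and 0 higher, beside 6.43% and 7.84% of all genes. Against control b alone 1 was lower (Sncg) and 0 higher, beside 5.55% and 3.38% of all genes, with no test in either case. The Nlgn2 call was lost with limma, with a filter of 5 RPKM and with shGFP added to the controls, and the Sncg call was lost only with shGFP added. DESeq2 called 6 members lower, adding Snap25, Syt1, Stx1a and Rab3c, beside 6.28% of all genes.

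Of the other presynaptic genes 70 were tested after U2af65 knockdown, with a median of -0.14. Of these 4 fell and 0 rose in edgeR, beside 3.42% and 1.82% of all genes tested. Syngr2, a synaptogyrin found in many tissues, fell by 1.87 (SE 0.26, adjusted p = 0.0114 in edgeR), with 8.46 RPKM in siU2af65, against 25.9 and 31.97 RPKM in controls a and b. Vamp3, a synaptobrevin of endosomal traffic, fell by 1.37 (SE 0.24, adjusted p = 0.0179 in edgeR), with 23.2 RPKM in siU2af65, against 58.6 and 52.3 RPKM in controls a and b. Both genes lay below both controls. Rab27a, a secretory vesicle GTPase, fell by 1.94 (SE 0.40, adjusted p = 0.0295 in edgeR), with 4.85 RPKM in siU2af65, against 22.3 and 12.1 RPKM in controls a and b. Sv2c, the most abundant SV2 gene in these files, fell by 1.07 (SE 0.24, adjusted p = 0.0374 in edgeR), with 28.2 RPKM in siU2af65, against 48.3 and 62.2 RPKM in controls a and b.

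After Ptbp1 knockdown no member was called by edgeR, with 0 higher and 0 lower of 26, and 0% of all genes tested were called higher and 0.0267% lower. At an unadjusted p under 0.05, edgeR had 1 member higher (Napb) and 1 lower (Sncb), beside 1.54% and 2.74% of all genes. DESeq2 called 0 members, with 1 higher and 2 lower unadjusted, beside 0.979% and 2.88% of all genes. With limma on log2(RPKM + 1) 0 members were called, with 2 higher and 3 lower unadjusted, beside 2.37% and 2.88% of all genes. The 26 members had a median log2 difference of -0.08, beside 0.01 over all genes, and 16 were negative. The siPtbp1 library lay below both controls in 13 of them and above both in 8, beside 28.9% and 34.8% of all genes. The other 70 presynaptic genes had 0 calls in edgeR and a median of -0.05.

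Napb was the member that stood furthest above both controls in siPtbp1. It had 39.0 RPKM in siPtbp1, against 20.3 and 23.6 RPKM in controls a and b, and 15.9 RPKM in siU2af65. The controls were close together, and siPtbp1 lay above and siU2af65 below them. Its log2 difference was 0.78 (SE 0.20, adjusted p = 0.730 in edgeR), at 0.83 against control a and 0.73 against control b. With library totals in place of TMM scaling the adjusted p was 0.0446 in edgeR, the lowest of its alternatives, which reached 0.999.

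In the other members with wide differences after Ptbp1 knockdown the controls also lay apart. Sncb, which encodes beta-synuclein, had 17.9 RPKM in siPtbp1, against 52.1 and 20.6 RPKM in controls a and b, a log2 difference of -1.10 (SE 0.48, adjusted p = 0.999 in edgeR). Control a stood apart, and the difference was -0.20 against control b. Vamp1 had 3.81 RPKM in siPtbp1, against 9.37 and 3.44 RPKM in controls a and b, a difference of -0.83 (SE 0.57, adjusted p = 0.999 in edgeR), and siPtbp1 lay between the controls. Syn2 had 46.6 RPKM in siPtbp1, against 86.4 and 50.7 RPKM in controls a and b, a difference of -0.63 (SE 0.34, adjusted p = 0.999 in edgeR). Unc13a had 41.1 RPKM in siPtbp1, against 66.4 and 51.7 RPKM in controls a and b, a difference of -0.58 (SE 0.30, adjusted p = 0.999 in edgeR). In Syn2 and Unc13a siPtbp1 lay below both controls. Against control a alone 3 members were 2-fold lower (Sncb, Vamp1 and Syn2), beside 2.71% of all genes, and against control b, of the same letter as siPtbp1, 0 were, beside 1.03% of all genes.

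The controls differed 2-fold or more from each other, as log2 CPM of control b minus control a, at 3 of the 26 members, beside 3.54% of all genes. Vamp1 differed by -1.56, Sncb by -1.46 and Cplx2 by 1.17. Syn2 and Vamp2 each differed by -0.89, and Syn1 by -0.69. By contrast Stx1a, Snap25, Syt4, Synj1 and Rab3a differed by -0.04 to 0.04.

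**Figure D4:**
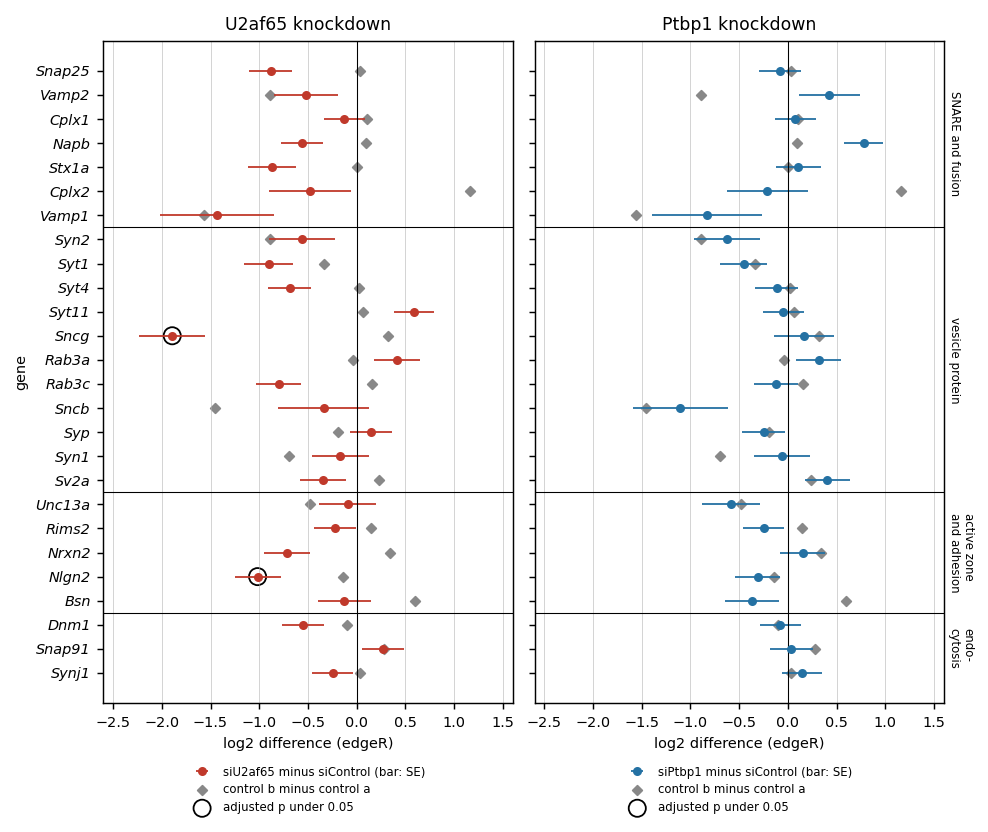
Log2 difference from the controls in the siU2af65 library (left) and the siPtbp1 library (right) for the 26 tested members, with SE from edgeR. Diamonds give control b minus control a in log2 CPM, and circles mark the 2 calls, Sncg and Nlgn2, both in siU2af65, while the 7 SNARE and fusion genes lie left of 0 in siU2af65 and on both sides of it in siPtbp1.

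The knockdowns were also set against each other in the same fit, and 2 members were lower and 0 higher in siU2af65 than in siPtbp1, against 2.54% and 1.09% of all genes, 3.62% in either direction. Sncg had a log2 difference of -2.06 (SE 0.37, adjusted p = 0.0235 in edgeR), from 8.66 RPKM in siU2af65 and 34.9 RPKM in siPtbp1. Napb had one of -1.34 (SE 0.24, adjusted p = 0.0235 in edgeR), from 15.9 RPKM in siU2af65 and 39.0 RPKM in siPtbp1. Over the 26 members 17 were negative, with a median of -0.42, beside 49.67% negative and a median of 0.00 over all genes. All 7 SNARE and fusion members were negative, with a median of -0.80. So were 6 of 11 vesicle proteins (median -0.11), 2 of 5 active zone and adhesion members (median 0.03) and 2 of 3 endocytosis genes (median -0.39). At an unadjusted p under 0.05, edgeR had 10 members lower and 1 higher, beside 12.1% and 8.73% of all genes, and DESeq2 9 lower and 1 higher, beside 10.7% and 7.92%. The Nlgn2 difference was -0.71 (SE 0.26, adjusted p = 0.164 in edgeR), so its decrease after U2af65 knockdown is not shown to differ from the siPtbp1 value. Of the other presynaptic genes, Syngr2 and Vamp3 were lower in siU2af65, with log2 differences of -2.28 (SE 0.29, adjusted p = 0.00848 in edgeR) and -1.69 (SE 0.26, adjusted p = 0.0155 in edgeR), and 0 were higher. The letter and the knockdown cannot be told apart in this contrast.

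Between the hairpin files 24 of 26 members were lower in shnSR100 than in shGFP, as were 44.04% of all genes, with a median difference of -0.47 in log2(RPKM + 1), beside 0.03 over all genes. A total of 4 members were 2-fold or more lower and 0 higher, beside 0.615% and 0.303% of all 11877 genes compared. With 1 file per group there is no test, and the counting intervals here are exact binomial at 95% and cover counting error only. Of 76 other presynaptic genes 0 were past 2-fold in either direction, with a median of -0.11. Without the pseudocount 5 members and 3 of these 76 genes were under 50% of shGFP, beside 1.43% of all genes. The 3 were Doc2a at 44.0%, Ppfia3 at 48.65% and Syt17 at 49.3% of shGFP.

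Syn1 had 8.83 RPKM in shnSR100 and 21.5 RPKM in shGFP, a difference of -1.19, so that shnSR100 held 41.1% of the shGFP level (interval 39.0 to 43.4%). The siRNA libraries lay between 16.9 and 25.2 RPKM, with shGFP inside that range and shnSR100 below it. Snap25 had 44.5 RPKM in shnSR100 and 102 RPKM in shGFP, a difference of -1.18, or 43.5% (interval 42.2 to 44.8%). Napb had 6.99 RPKM in shnSR100 and 17.0 RPKM in shGFP, a difference of -1.17, or 41.2% (interval 39.2 to 43.4%). Unc13a had 24.0 RPKM in shnSR100 and 51.8 RPKM in shGFP, a difference of -1.08, or 46.4% (interval 45.5 to 47.4%). In all 4 genes shnSR100 was the lowest of the 6 files.

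Further members were close to the 2-fold limit. Bsn was at 44.8% of shGFP, from 2.22 RPKM in shnSR100 and 4.96 RPKM in shGFP, and it passed 2-fold with a pseudocount of 0.1 in place of 1. Sncg was at 52.7% and Syp at 53.3% of shGFP. The 5 active zone and adhesion members had a median difference of -0.66, the 11 vesicle proteins -0.51, the 3 endocytosis genes -0.39 and the 7 SNARE and fusion members -0.35. Synj1, at 109% of shGFP (interval 105 to 112%), and Vamp1, at 112% (interval 104 to 122%), were the 2 members with a higher level in shnSR100. Vamp2, Syn2, Syt1 and Rab3a stayed at 85.6 to 92.3% of shGFP.

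**Figure D5:**
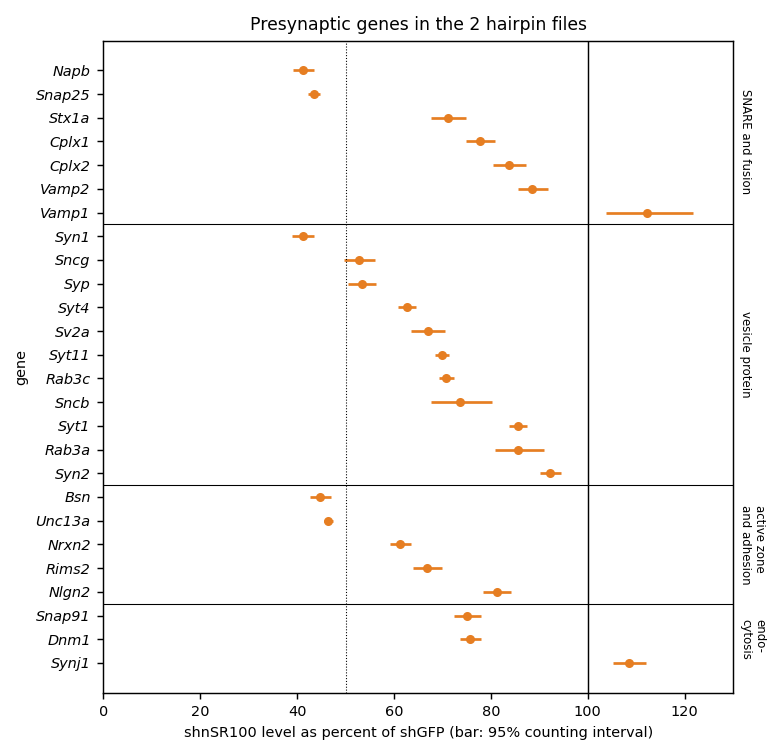
Level in shnSR100 as a percentage of that in shGFP for the 26 expressed members by role, with exact binomial counting intervals at 95%, the solid line at 100% and the dotted line at 50%. Napb, Snap25, Syn1, Bsn and Unc13a lie below 50%, and Vamp1 and Synj1 lie above 100%.

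The hairpin files also differed in markers of cell type. Of the 14 neuron and neuroblastoma markers 10 were lower in shnSR100, with a summed level of 686 RPKM in shnSR100 and 1126 RPKM in shGFP, and Tubb3, Stmn2 and Gap43 stood at 59.6%, 50.9% and 55.7% of shGFP. Of the 6 fibroblast markers 5 were higher in shnSR100, at a summed 12.4 RPKM in shnSR100 and 7.41 RPKM in shGFP. Most of both sums came from Pdgfra (5.82 RPKM in shnSR100 and 2.74 in shGFP) and Dcn (5.70 and 3.99 RPKM). The remaining fibroblast markers stayed at 0.48 RPKM or less in every file. The part of the neuronal and fibroblast markers in the member differences was not tested. Srrm4 stood at 21.5% of shGFP (interval 20.2 to 22.8%).

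Promoters of 27 members were searched for motifs. Several neuronal release genes are known to carry RE1, the binding element of the repressor REST, near their start. RefSeq promoters (250 bases before to 50 bases after the start, GRCm38.p6) were used for 27 of the 32 members. Nrxn2, Rims2, Snap25, Syt4 and Vamp2 were not part of the search, so nothing is said of their promoters. The left arm of RE1, TTCAGCACC on either strand, was found in 2 of the 27 members, Syn1 and Unc13a, and in 0.433% of 27025 genes. The cyclic AMP response element, TGACGTCA, which reads alike on both strands, was found in 1 of the 27, Syn1, and in 2.03% of genes. The longer form of RE1, with the letters GGACAG of the right arm 2 bases after the left arm, was found in 0 of the 27 members and 0.0148% of genes. This search took exact letters only. In the Syn1 stretch below, the letters ggtcag stand at that place and differ from GGACAG by 1 letter. These matches describe the letters only. Syn1 is shown because it had the widest difference between the hairpin files and holds both motifs. Capitals mark the motif, and the stretches run 5′ to 3′ along the gene:
Syn1, RE1 arm, chrX:20921131-20921160, minus strand, GRCm38.p6: cactgtcggaTTCAGCACCgcggtcagagc
Syn1, cyclic AMP element, chrX:20921059-20921088, minus strand, GRCm38.p6: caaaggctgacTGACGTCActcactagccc

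The Syn1 arm begins at base -232 and its cyclic AMP element at base -159 from the start site, while the Unc13a arm lies on the opposite strand, from base 23 to base 31 after the start. Rest itself was at 12.6 RPKM in shnSR100 and 10.8 RPKM in shGFP, and at 9.50 RPKM in siU2af65, 13.5 in siPtbp1 and 14.1 and 10.99 in controls a and b. Of the genes past 2-fold, the promoter of Napb held none of these motifs. After U2af65 knockdown Syn1 had a log2 difference of -0.17 (SE 0.29, adjusted p = 0.778 in edgeR) and Unc13a one of -0.09 (SE 0.29, adjusted p = 0.882 in edgeR). After Ptbp1 knockdown the Syn1 difference was -0.06 (SE 0.29, adjusted p = 0.999 in edgeR). Neither gene passed the test in either siRNA comparison.

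Syn1, Syn2 and Unc13a overlap other genes that have values in the files, namely Araf and Timp1, Timp4, and Colgalt1. Whether reads were counted by strand was not given in the sources used here, so reads in an overlap could fall to either gene. Colgalt1 was at 77.4 RPKM in shnSR100 and 69.2 RPKM in shGFP, where Unc13a was lower in shnSR100. Araf was at 18.8 RPKM in shnSR100 and 24.3 RPKM in shGFP, and Timp1 at 4.77 and 4.42 RPKM in the same files, beside Syn1.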

How the data were processed

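Per the labels, total RNA was made into Illumina mRNA-Seq libraries. For each Ensembl gene the authors deposited raw read counts and RPKM values, in files without a header, where empty counts stand for 0 and 1114 genes lack an RPKM. The submitters' processing notes name Bowtie, bedtools 2.17.0 and mm9. How reads were counted, on which strand and with which annotation is not given in the sources used here. Symbols were found for 20759 of 22667 identifiers.

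edgeR 4.0.16 (quasi-likelihood, TMM, R 4.3.3) was run on the deposited counts of the 4 siRNA libraries, for the 11237 genes whose mean reached 1 RPKM, with Benjamini-Hochberg adjustment and a threshold of 0.05. It had 1 residual and 8.65 prior degrees of freedom and was tested on simulated data. CPM are TMM-scaled. The SE is the log2 difference divided by the square root of F. Alternatives used DESeq2 1.42.0, limma 3.58.1, other scalings, filters, pseudocounts and controls. Hairpin files were compared in log2(RPKM + 1), which understates changes of low genes, without a test, where either file had at least 1 RPKM.

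Members and lists were chosen with earlier results of these data known. Named in full were called members, members past 2-fold in shnSR100, the 2 highest per role and the 5 widest differences per knockdown, and of the other presynaptic genes those called. Human cells and crosslinking libraries were not analysed here. RefSeq promoters are on GRCm38.p6, not the build of the files. Some relatives of the members are not reported here.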

Additional observations from a re-analysis of the deposited data

How the results depend on the processing

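Members called lower after U2af65 knockdown numbered 5 with library totals, 7 with no filter on RPKM, 1 with a mean of at least 5 RPKM, 6 with DESeq2 and 0 with shGFP added to the controls, against 2 in the report. Limma at either pseudocount called 3 lower. Of all genes tested, those called lower were 5.14%, 5.45%, 2.05%, 6.28% and 0% in the same order of settings and 5.61% to 5.73% with limma, against 3.42%. Members called higher numbered 1 (Syt11) with library totals and with limma at either pseudocount, against 0, beside 5.16% and 5.49% to 5.83% of all genes. After Ptbp1 knockdown 1 member was higher (Napb) with library totals, and 1 was lower (Sncb) with no filter and with limma on log2(RPKM + 0.1), against 0, beside 0.125% of all genes higher and 0.516% and 0.676% lower. Lower in siU2af65 than in siPtbp1 were 3 members with library totals and 5 with no filter, against 2. A mean of at least 5 RPKM gave 1, limma at either pseudocount 4 and shGFP added 0. Of all genes, those lower were 4.85%, 4.28%, 0.964%, 5.38% to 5.47% and 0% in the same order of settings. The cause was not tested, also where shGFP, a file from stable hairpin cells, was added to the siRNA controls.

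Differences changed sign under some tested settings. After U2af65 knockdown Unc13a was 0.0174 with library totals, 0.0267 with limma on log2(RPKM + 1) and 0.0272 on log2(RPKM + 0.1), and Bsn 0.0061 on log2(RPKM + 0.1). After Ptbp1 knockdown, in the same order of settings, Syn1 was 0.0066, 0.0324 and 0.0349 and Syt11 0.0045, 0.0073 and 0.0076. With shGFP added, Sncg was -0.1373, Nrxn2 -0.0212, Synj1 -0.0462 and Snap91 -0.0356. For the siU2af65 library the median over all genes tested was 0.10 with library totals and 0.11 with limma on log2(RPKM + 0.1), against -0.00 with TMM, and 580 genes were then called higher and 578 lower with library totals, against 205 and 384.

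Against 1 control alone, with no test, 10 of 104 siRNA differences had another sign than against both. After U2af65 knockdown these were Cplx2 (0.22) and Bsn (0.20) against control a, and Sncb (0.57), Syn1 (0.22) and Unc13a (0.17) against control b. After Ptbp1 knockdown they were Cplx2 against control a and Vamp1, Syn1, Nrxn2 and Snap91 against control b. Under the tested settings 436 siRNA results gave the same verdict, 22 a call that was gained, 8 a call that was lost and 14 a change of sign. Of the hairpin values 100 stayed within their counting interval and 3 moved, and the count of members past 2-fold lower was 4 or 5, also with no pseudocount, an alternative chosen after seeing the data. The count of expressed members was 25 to 27 at other thresholds. Leaving out either control leaves no residual degrees of freedom, so the report gives those values without a test. No paired analysis was possible because each knockdown has 1 library with 1 letter, and the numbered hairpin runs are pooled in 1 file per group. Depth limits the 6 low members, at most 690 reads each over all files.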
